A study of Homo sapiens with 6 samples.

Results

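Chromosome 11 was described from its open chromatin intervals, as listed for 6 ATAC-seq libraries of K562 cells. An interval here is a stretch of DNA in which the authors' peak caller found more fragments than in the surrounding sequence. All intervals on the chromosome were taken except those at 5.2 to 5.35 Mb, which hold the globin locus, and they were counted in 27 bins of 5 Mb on the hg19 build. The 6 lists held 2636 such intervals of 48951 in all, and merging those that overlapped between libraries gave 893 regions of 17457. The segment from 60 to 70 Mb, referred to as gene-dense when it was chosen, held 161 of these regions, and the rest of the chromosome, 124.85 Mb, held 732. The chromosome was chosen by its gene density and by the local background of its peaks, and the segment with its interval numbers in view, so those values are descriptions with no test.

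K562 is an established human leukaemia line. ATAC-seq marks open DNA by letting a transposase insert sequencing adapters where nucleosomes leave room. The 3 lines were a vector control, K562 with wild-type SLFN11 overexpression and K562 with overexpression of the E669Q form. Cells of each line received either DMSO, the solvent, or camptothecin (CPT) at 1000 nM for 4 h, and every one of the 6 groups is a single library without replicates. No difference below therefore has a replicate check or a p-value. The 95% intervals given (exact Clopper-Pearson for shares, Newcombe for differences of shares, log-normal for ratios, order statistics for medians) describe counting error alone, as if intervals were independent. The sources used here do not say how the lines were made or whether each is 1 clone.

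SLFN11 is a Schlafen-family protein that is recruited to stressed replication forks, blocks replication and has been linked to the opening of chromatin there. E669Q lies in its ATPase domain. CPT traps topoisomerase I on DNA, which stalls forks and transcription. In human chromosomes, open chromatin concentrates in gene-rich stretches, where promoters and enhancers are dense, replication is early and nucleosomes are more often displaced.

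Chromosome 11 carries 1301 protein-coding genes in RefSeq (GRCh38.p14, counted without coordinates), or 9.66 per Mb of the length spanned by the peaks. That placed it after chromosomes 19 and 17 among 23 chromosomes. Gene density within the 60-70 Mb segment was not measured, since no hg19 annotation was used, and peaks are given by position without gene names.

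The 6 libraries differed in depth and in list length, and both move interval numbers. Relative depth was recovered from the deposited folds and p-values and set to 1 in the shallowest library, that of vector with DMSO. Vector with CPT had 1.09, wild-type SLFN11 had 1.72 (DMSO) and 1.09 (CPT), and E669Q had 1.33 and 2.22. The lists held 5245 to 12335 intervals. Shares of a list and ratios within a list are therefore given beside numbers.

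Chromosome 11 held a near-constant share of every list. The vector library held 287 chromosome 11 intervals with DMSO and 348 with CPT, the wild-type SLFN11 library 636 and 324, and the E669Q library 424 and 617. As shares of the whole list these were 5.47% (95% interval 4.87 to 6.12) and 5.996% (5.40 to 6.64) in the vector line, 5.46% (5.06 to 5.89) and 5.83% (5.23 to 6.48) with wild-type SLFN11, and 5.07% (4.61 to 5.56) and 5.00% (4.62 to 5.40) in the E669Q line. The chromosome ranked between 6th and 9th of 23 chromosomes by share in the 6 libraries.

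Against the vector library of the same treatment, the chromosome's share was 0.998 times (0.865 to 1.15) as high in wild-type SLFN11 with DMSO, 0.972 times (0.832 to 1.14) with CPT and 0.927 times (0.795 to 1.08) in E669Q with DMSO. Only the E669Q library with CPT had an interval that did not reach 1, at 0.834 times (0.729 to 0.955). The corresponding ratios for chromosome 19 were 2.01, 2.08, 2.47 and 1.96, and those for chromosome 17 were 1.79, 2.02, 1.54 and 1.64. Chromosome 11 thus kept or lost share where the 2 most gene-dense chromosomes gained it, and their intervals did not overlap those of chromosome 11 in any of the 4 comparisons.

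Within the chromosome, a larger part of the intervals lay at 60-70 Mb in both SLFN11 lines than in the vector line. The segment held 20 intervals in vector with DMSO, 39 in vector with CPT, 101 and 55 in the DMSO and CPT libraries of wild-type SLFN11, 68 in E669Q with DMSO and 120 in E669Q with CPT. The rest of the chromosome held 267, 309, 535, 269, 356 and 497 in the same order. The clearest pair is vector with CPT and wild-type SLFN11 with CPT, which were of near-equal depth and list length. There the segment held more intervals in the wild-type SLFN11 library and the rest of the chromosome held fewer.

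As a share of chromosome 11 intervals the segment took 6.97% (4.31 to 10.6) in vector with DMSO and 11.2% (8.09 to 15.0) in vector with CPT. It took 15.9% (13.1 to 18.96) and 16.98% (13.1 to 21.5) in wild-type SLFN11 with DMSO and CPT. In E669Q it took 16.0% (12.7 to 19.9) and 19.4% (16.4 to 22.8). All 4 SLFN11-line libraries lay above both vector libraries, although the interval of vector with CPT overlapped those of 3 of them and missed only that of E669Q with CPT.

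**Figure D1:**
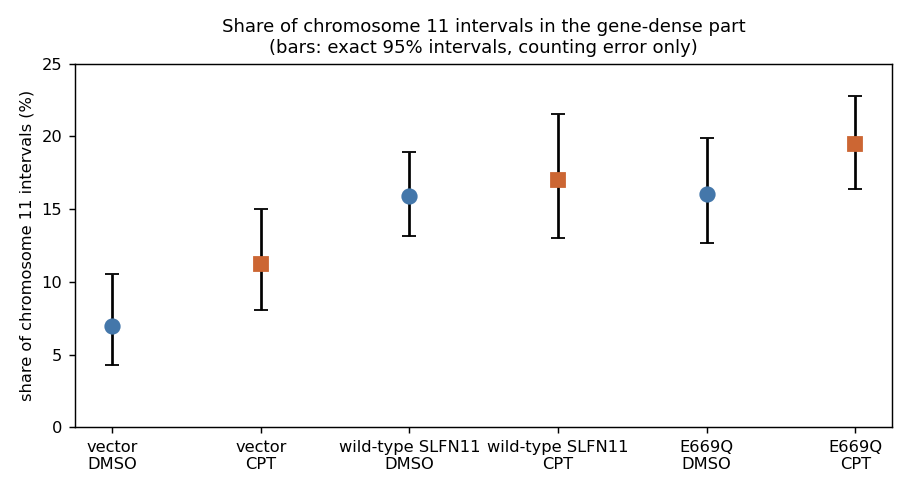
Share of chromosome 11 intervals that lie in the gene-dense segment (vertical axis, %), in each of the 6 libraries (horizontal axis; circles DMSO, squares CPT, 1 library per point). Bars are exact 95% intervals for counting error; the 2 vector libraries lie at 6.97% and 11.2%, and the 4 SLFN11-line libraries between 15.9% and 19.4%.

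Against vector at the same treatment, the share was higher by 8.91 percentage points (4.49 to 12.8) in wild-type SLFN11 with DMSO and by 5.77 (0.506 to 11.1) with CPT. It was higher by 9.07 points (4.30 to 13.6) in E669Q with DMSO and by 8.24 (3.49 to 12.6) with CPT. Both comparisons of a treatment share their vector library. When the deeper library was thinned to the depth of its vector library, an alternative chosen after the data were seen, the differences were 5.28 points (0.821 to 9.55), 5.74 (0.525 to 11.1), 7.56 (2.72 to 12.48) and 5.19 (0.0183 to 10.4) in the same order.

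List length bore on 3 of these 4 differences. When each list was reduced to its 5245 strongest intervals, the segment's share of chromosome 11 was 6.97% and 9.35% in vector with DMSO and CPT, 7.82% and 16.5% in wild-type SLFN11, and 10.8% and 13.95% in E669Q. The difference from vector with DMSO was then 0.849 points (-3.497 to 5.14) in wild-type SLFN11 and 3.85 points (-0.913 to 8.77) in E669Q. With CPT it was 4.61 points (-0.613 to 10.1) in E669Q and 7.11 points (1.88 to 12.4) in wild-type SLFN11, so that only the last had an interval above 0. Among intervals with a −log10 q-value of at least 5, wild-type SLFN11 exceeded vector by 7.32 points (2.64 to 10.96) with DMSO and 5.36 (-0.570 to 11.8) with CPT. E669Q exceeded it by 8.71 points (3.49 to 13.6) with DMSO and 10.2 (4.78 to 14.9) with CPT. With a fold of at least 5, wild-type SLFN11 with DMSO exceeded vector by 10.6 points (6.22 to 14.3). The difference of the wild-type SLFN11 library with DMSO thus shrank at matched list length but remained at both fixed cut-offs. Those cut-offs do not make the lists equal in length. With DMSO they left 7230 intervals in wild-type SLFN11 against 2552 in vector (q-value) and 9255 against 4012 (fold). They are therefore no check on list length or depth.

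Interval density tells the same values per length. In the segment it was 2.0 intervals per Mb in vector with DMSO, 3.9 in vector with CPT, 10.1 and 5.5 in the wild-type SLFN11 libraries (DMSO, then CPT), and 6.8 and 12.0 in E669Q. Outside it the density was 2.14, 2.47, 4.29, 2.15, 2.85 and 3.98 per Mb. The segment was no denser than the rest in vector with DMSO, with a ratio of 0.935 (0.594 to 1.47), and was 1.58 times (1.13 to 2.199) as dense in vector with CPT. In the SLFN11 lines the ratio was 2.36 (1.91 to 2.92) and 2.55 (1.91 to 3.41) for wild-type SLFN11 and 2.38 (1.84 to 3.09) and 3.01 (2.47 to 3.68) for E669Q, DMSO first. Among intervals with a −log10 q-value of at least 5 all 6 ratios were lower, and those of the vector libraries were 0.337 (0.125 to 0.911) and 0.689 (0.352 to 1.35).

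Spacing followed density. The median distance from an interval to the next within the segment was 235 kb in vector with DMSO and 78.5 kb in vector with CPT, 43.1 and 81.8 kb in wild-type SLFN11, and 66.3 and 37.7 kb in E669Q. Outside it the distance was 175, 143, 84.4, 153, 128 and 93.1 kb. Vector with DMSO was the only library in which intervals lay farther apart inside the segment than outside it.

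Along the whole chromosome, the densest bins by the mean over 6 libraries were 60-65 Mb with 7.10 intervals per Mb, the short-arm end at 0-5 Mb with 6.47 and 65-70 Mb with 6.33. The sparsest were 20-25 Mb with 1.27, 25-30 Mb with 1.43 and 40-45 Mb with 1.47. The 60-65 Mb bin held 9, 21, 56, 29, 39 and 59 intervals in the order vector, wild-type SLFN11 and E669Q, DMSO before CPT. The 65-70 Mb bin held 11, 18, 45, 26, 29 and 61. The 0-5 Mb bin held 22, 23, 48, 27, 35 and 39, so that it was the densest bin of vector with DMSO and was passed by both bins of the segment in the E669Q library with CPT.

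**Figure D2:**
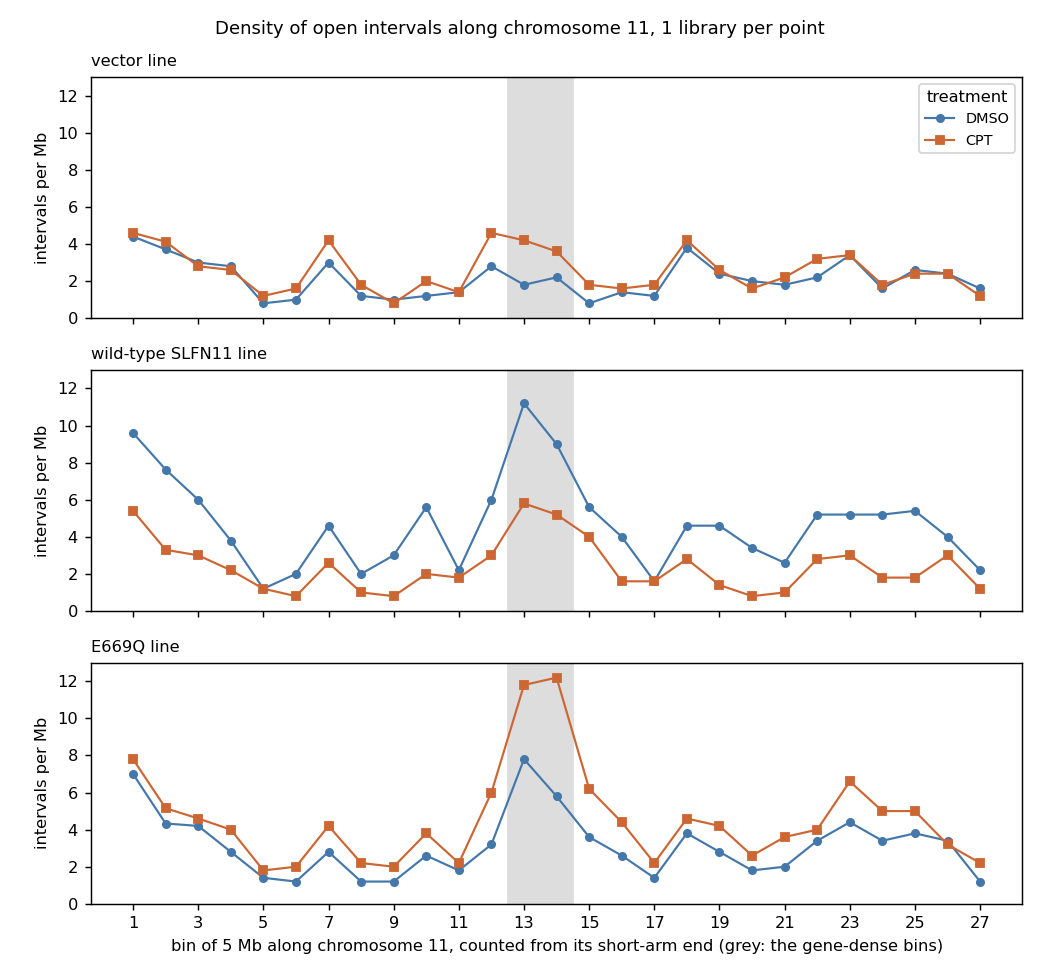
Intervals per Mb (vertical axis) in 27 bins of 5 Mb along chromosome 11 (horizontal axis, bin number from the short-arm end), 1 panel per line, 1 library per curve (circles DMSO, squares CPT). The 2 grey bins are the gene-dense segment, which holds at most 4.2 per Mb in the vector panel and reaches 11.2 and 12.2 per Mb in the SLFN11 lines.

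The profile of both SLFN11 lines differed from that of the vector line over a wider stretch than the segment. The mean share of chromosome 11 intervals over the 4 SLFN11-line libraries, divided by the mean over the 2 vector libraries, was highest in the neighbouring 70-75 Mb bin at 2.49, followed by 60-65 Mb at 1.99 and 65-70 Mb at 1.77. The 70-75 Mb bin held 4 and 9 intervals in the vector line, 28 and 20 in wild-type SLFN11 and 18 and 31 in E669Q. The 115-120 Mb bin came next at 1.39. On the centromere-proximal side, the 55-60 Mb bin was at 0.783. The lowest ratios were in 30-35 Mb at 0.636, 85-90 Mb at 0.638 and 35-40 Mb at 0.675. These ratios rank bins that were seen first and carry no interval.

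Most of the segment took part. In 1 Mb steps, the E669Q library with CPT held 4, 9, 15, 8 and 23 intervals from 60 to 65 Mb and 18, 17, 18, 4 and 4 from 65 to 70 Mb. The vector library with DMSO held 1, 1, 3, 1, 3, 2, 5, 3, 1 and 0 in the same steps, and the wild-type SLFN11 library with CPT held 2, 5, 10, 5, 7, 7, 9, 7, 2 and 1. In these 3 libraries both ends of the segment were sparse, and the intervals lay mainly between 61 and 68 Mb.

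Compared with other 10 Mb windows of the genome at matched list length, 60-70 Mb was high but not extreme. It held 20 and 30 intervals in the vector libraries with DMSO and CPT and 24, 51, 29 and 36 in the SLFN11 lines. The ratio of the SLFN11-line mean to the vector mean was 1.40, which ranked 26 of 219 windows with enough intervals. The adjacent 70-80 Mb window had a ratio of 1.76 and ranked 13. At the other end, the 30-40, 80-90 and 90-100 Mb windows of the same chromosome had ratios of 0.640, 0.691 and 0.702 and ranked 214, 210 and 207.

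Set against the whole list rather than the chromosome, the segment held 0.381% of intervals in vector with DMSO, 0.672% in vector with CPT, 0.867% and 0.989% in wild-type SLFN11, and 0.813% and 0.973% in E669Q. Its share was 2.27 times (1.41 to 3.68) that of vector in wild-type SLFN11 with DMSO and 1.47 times (0.975 to 2.22) with CPT. In E669Q it was 2.13 times (1.29 to 3.52) with DMSO and 1.45 times (1.01 to 2.08) with CPT. The rest of the chromosome was at 0.903, 0.909, 0.836 and 0.757 times in the same order, and only the E669Q values had intervals that stayed below 1. In each of the 4 comparisons the segment's interval overlapped those of chromosomes 17 and 19, so the segment was not set apart from them.

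The number of chromosome 11 intervals differed between CPT and DMSO libraries in opposite directions in the lines. The ratio of CPT to DMSO numbers was 1.21 (1.04 to 1.42) in the vector line, 0.509 (0.446 to 0.582) in the wild-type SLFN11 line and 1.46 (1.29 to 1.65) in the E669Q line. The whole lists gave 1.11, 0.477 and 1.48, so the chromosome moved as its lists did. After thinning to equal depth within each line, the chromosome 11 ratios were 1.14 (0.969 to 1.33), 0.714 (0.619 to 0.823) and 1.04 (0.908 to 1.19), and only the wild-type SLFN11 line had an interval away from 1. The whole lists at equal depth gave 1.04, 0.687 and 1.04 in the same order.

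In the segment the ratio of CPT to DMSO numbers was 1.95 (1.14 to 3.34) in the vector line, 0.545 (0.392 to 0.756) in wild-type SLFN11 and 1.76 (1.31 to 2.38) in E669Q. On the rest of the chromosome it was 1.16 (0.982 to 1.36), 0.503 (0.434 to 0.582) and 1.40 (1.22 to 1.60). The segment's ratio over that of the rest was above 1 in all 3 lines, at 1.68 (0.959 to 2.96), 1.08 (0.756 to 1.55) and 1.26 (0.911 to 1.75), and all 3 intervals included 1. Some alternatives gave intervals above 1, at 1.68 (1.09 to 2.58) in the vector line with the segment set to 55-75 Mb and 1.58 (1.09 to 2.29) in E669Q among intervals wider than 150 bp.

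At equal depth the wild-type SLFN11 line gave 59.1 expected intervals in the segment with DMSO against 55 with CPT, a ratio of 0.930 (0.644 to 1.34). Its rest of the chromosome fell from 395 to 269, a ratio of 0.681 (0.584 to 0.796). The segment's ratio over that of the rest was 1.37 (0.916 to 2.03) at equal depth, an interval that included 1. At matched list length the same line went from 24 to 51 intervals in the segment, and the ratio of ratios was 2.32 (1.39 to 3.88). Among the strongest 5245 intervals of each list, the segment of this line thus held more with CPT than with DMSO. That cut was uneven, from 11645 intervals with DMSO and from 5560 with CPT. Segment intervals were also the weaker ones: with DMSO 40.6% reached a −log10 q-value of at least 5, against 69.3% on the rest. How far the uneven cut made this rise was not tested, and at full length the segment went from 101 to 55.

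The share of chromosome 11 intervals in the segment was higher with CPT by 4.24 points (-0.345 to 8.69) in the vector line, 1.09 (-3.69 to 6.28) in wild-type SLFN11 and 3.41 (-1.38 to 8.004) in E669Q. At matched list length the wild-type SLFN11 difference was 8.63 points (3.497 to 13.8). The chromosome's share of the whole list moved by 0.524 points (-0.348 to 1.39), 0.366 (-0.359 to 1.13) and -0.0685 (-0.684 to 0.533). At full list length every one of these intervals included 0. With the segment set to 55-75 Mb the vector difference was 7.16 points (1.27 to 12.9), and among intervals wider than 150 bp the E669Q difference was 6.29 (1.17 to 11.1). As a share of the whole list, 60-70 Mb was higher with CPT by 0.291 points (0.0163 to 0.570) in the vector line, 0.122 (-0.172 to 0.455) in wild-type SLFN11 and 0.160 (-0.109 to 0.415) in E669Q.

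Bin by bin, the vector library with CPT held more intervals than that with DMSO in 18 of 27 bins, fewer in 6 and equal numbers in 3. In the wild-type SLFN11 line 25 bins had fewer and 2 had equal numbers, and in the E669Q line 26 had more and 1 had fewer. These numbers are not corrected for depth, which moved in the same direction in each line. At equal depth the ratio of CPT to DMSO numbers on chromosome 11 was 1.14 in vector, 0.714 in wild-type SLFN11 and 1.04 in E669Q. No bin changed its share of the chromosome by more than its counting interval in any line. The largest rises in share were 2.899 points (-0.506 to 6.26) at 60-65 Mb in the vector line, 1.77 (-1.08 to 5.21) at 70-75 Mb in wild-type SLFN11 and 3.05 (-0.469 to 6.36) at 65-70 Mb in E669Q. The largest falls were -1.20 points (-4.80 to 2.11) at 10-15 Mb in the vector line, -1.47 (-3.74 to 1.28) at 120-125 Mb in wild-type SLFN11 and -1.93 (-5.37 to 1.22) at 0-5 Mb in E669Q.

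Next in size were rises of 1.73 points at 55-60 Mb in the vector line, 1.48 at 125-130 Mb in wild-type SLFN11 and 1.09 at 55-60 Mb in E669Q. The next falls were -1.19 points at 95-100 Mb, -1.46 at 90-95 Mb and -1.42 at 125-130 Mb. The 125-130 Mb bin stood among the rises of one SLFN11 line and the falls of the other, with 20 and 15 intervals in wild-type SLFN11 and 17 and 16 in E669Q.

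Turnover of single intervals was then counted. A CPT interval that shares not even 1 bp with any DMSO interval of the same line counts as gained, and a DMSO interval without overlap in the CPT list as lost. Over whole lists, gained intervals were 45.1% in the vector line, 15.1% in wild-type SLFN11 and 45.2% in E669Q, and lost intervals were 39.5%, 59.5% and 19%. On chromosome 11 outside the segment, 117 of 309 (37.9%), 36 of 269 (13.4%) and 208 of 497 (41.9%) were gained, and 74 of 267 (27.7%), 302 of 535 (56.4%) and 64 of 356 (18.0%) were lost. The chromosome outside the segment was thus near the whole-list shares or below them, most of all for losses in the vector line.

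Inside the segment, 31 of 39 vector CPT intervals were gained (79.5%, 63.5 to 90.7), as were 13 of 55 (23.6%, 13.2 to 37.0) in wild-type SLFN11 and 64 of 120 (53.3%, 44.0 to 62.5) in E669Q. Losses were 12 of 20 (60%, 36.1 to 80.9), 58 of 101 (57.4%, 47.2 to 67.2) and 13 of 68 (19.1%, 10.6 to 30.5). In the vector line the interval of the gained share lay above the whole-list 45.1%. That of its lost share, over 20 intervals, included the whole-list 39.5%. The losses of both SLFN11 lines were near their whole-list shares. All 31 intervals gained in the segment by the vector line were also present in a library of another line, against 86.6% of gained intervals over the whole list. For wild-type SLFN11 7 of 13 (53.8%) were, and for E669Q 36 of 64 (56.3%), near the whole-list 60.8% and 53.5%.

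**Figure D3:**
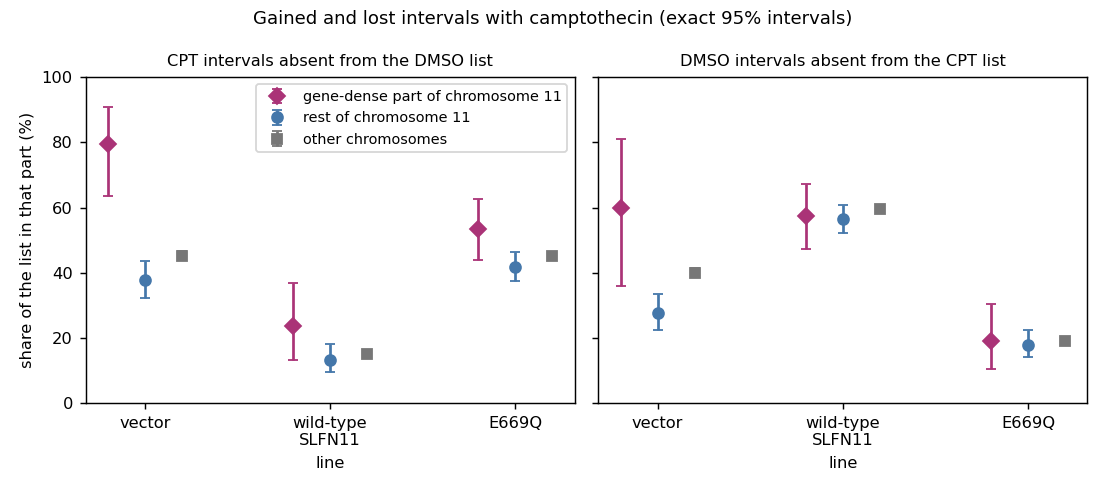
Share of intervals gained and lost with CPT (vertical axis, %) in each line, for the gene-dense segment, the rest of chromosome 11 and the other chromosomes, with exact 95% intervals for counting error. The gained share of the segment is 79.5% in the vector line against 37.9% on the rest of the chromosome; in the other lines the segment and the rest differ less.

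The segment made up 20.9% of gained and 13.95% of lost chromosome 11 intervals in the vector line, 26.5% and 16.1% in wild-type SLFN11, and 23.5% and 16.9% in E669Q. Gained minus lost was 6.99 points (-3.59 to 16.3), 10.4 (-0.704 to 24.6) and 6.65 (-4.28 to 15.3). All 3 intervals included 0. Alternatives changed this most in wild-type SLFN11, where 5 of 6 gave intervals above 0, up to 21.8 points (12.1 to 31.2) at matched list length, while an overlap of 50% of both intervals gave 2.18 (-4.32 to 9.85). Intervals above 0 were also given by the 55-75 Mb segment in the vector line, at 13.3 points (1.40 to 23.9), and by intervals wider than 150 bp in E669Q, at 15.0 (4.03 to 23.3). Gained intervals of the segment were weak, with a median fold of 5.13 to 5.38 over the 3 lines and median summit pileups of 7, 7 and 10 fragments.

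The intervals of each SLFN11 library that were missing from the vector list at the same treatment were a larger part of the segment than of the whole list. Over whole lists they were 61.9% (DMSO) and 42.5% (CPT) for wild-type SLFN11, and 56.0% and 60.6% for E669Q. In the segment they were 83 of 101 (82.2%), 35 of 55 (63.6%), 54 of 68 (79.4%) and 83 of 120 (69.2%). Outside the segment they were 54.8%, 30.9%, 46.6% and 48.5%, each below the whole-list share. These shares partly restate the interval numbers, because the segment held fewer vector intervals than SLFN11-line intervals at each treatment. They are no further support.

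In the other direction, vector intervals absent from the SLFN11 list were about as common in the segment as over the whole list in 3 of 4 comparisons. With DMSO, 3 of 20 vector intervals of the segment (15.0%) were absent from wild-type SLFN11 against 15.4% of the whole list, and 6 of 20 (30.0%) were absent from E669Q against 29.9%. With CPT, 18 of 39 (46.2%) were absent from wild-type SLFN11 against 44.8%, and 1 of 39 (2.56%, 0.0649 to 13.5) was absent from E669Q against 15.7%. The deep E669Q library with CPT therefore held nearly all vector intervals of the segment.

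Recurrence over the 6 libraries was low in the segment. Of its 161 merged regions 6 (3.73%, 1.38 to 7.93) were present in all 6 libraries, against 125 of 732 (17.1%, 14.4 to 20.0) on the rest of the chromosome and 12.3% of all regions. Both vector libraries held 8 of the 161 (4.97%) against 197 of 732 (26.9%), with 18.6% over all regions. All 4 SLFN11-line libraries held 25 (15.5%) against 184 (25.1%), with 21.4% over all regions. On chromosomes 17 and 19, 5.03% and 4.65% of regions were in all 6 libraries. Both vector libraries held 7.21% and 6.28% there, and all 4 SLFN11-line libraries 17.6% and 24.5%. Low recurrence over all 6 or both vector libraries was thus not particular to the segment. The gap between the segment and the rest was wider among the vector libraries, which are also shallower. Vector with DMSO held only 20 intervals in the segment, which limits how many of its regions both vector libraries or all 6 could share. The low recurrence thus follows in part from the interval numbers.

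At least 1 vector library held 50 of the 161 regions (31.1%) against 373 of 732 (51.0%), where the share over all regions was 43.8%. At least 1 SLFN11-line library held 160 of 161 (99.4%) against 697 of 732 (95.2%), where it was 95.8%. Regions in all 4 SLFN11-line libraries and neither vector library numbered 8 of 161 (4.97%) and 21 of 732 (2.87%), near the 3.09% over all regions. None of the 893 was found in both vector libraries and no SLFN11-line library, a pattern held by 0.12% of all regions. Regions of a single library made up 67 of 161 (41.6%) and 265 of 732 (36.2%), against 38.1% over all.

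The intervals of the segment were narrower and weaker than those of the rest in every library. Their median width was 183 to 244.5 bp over the 6 libraries against 240 to 319 bp, their median fold 4.79 to 5.71 against 6.15 to 6.43, and their median summit pileup 6 to 10 fragments against 9 to 12. A −log10 q-value of at least 5 was reached by 20.0% of segment intervals in vector with DMSO, 23.1% in vector with CPT, 40.6% and 29.1% in wild-type SLFN11, and 39.7% and 50.8% in E669Q. On the rest of the chromosome 50.2% to 69.3% reached it. Fold and q-value are the authors' own per peak and describe intervals within a list.

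The local background, the number of fragments the peak caller expected at the summit from its surroundings, was recovered for 98.7% to 99.3% of entries per list. It was compared between libraries over intervals they shared, on a log2 scale relative to the median of all shared intervals. Against vector at the same treatment, the chromosome 11 median was 0.0092 (-0.039 to 0.061) in wild-type SLFN11 with DMSO and -0.0018 (-0.084 to 0.11) with CPT. In E669Q it was -0.12 (-0.20 to -0.061) with DMSO and -0.041 (-0.11 to 0.019) with CPT. It ranked 11, 12, 21 and 15 of 23 chromosomes, while chromosome 19 stood at 0.25, 0.54, 0.70 and 0.60 and chromosome 17 at 0.20, 0.38, 0.24 and 0.24. For the chromosome as a whole these values showed no rise. They were used in choosing the chromosome, so the missing rise describes that choice and is no separate result.

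The segment did not share that flat background. Its median over vector was 0.22 (-0.084 to 0.58, 18 shared intervals) in wild-type SLFN11 with DMSO and 0.68 (0.60 to 1.02, 20 shared) with CPT, where 20 of 20 shared intervals lay above 0. In E669Q it was 0.12 (-0.24 to 0.61, 14 shared) with DMSO and 0.36 (0.18 to 0.44, 37 shared) with CPT, where 28 of 37 lay above 0. The rest of the chromosome stood at 0.0092, -0.064, -0.14 and -0.073. The segment minus the rest was 0.21 (-0.093 to 0.57), 0.74 (0.67 to 1.08), 0.26 (-0.10 to 0.75) and 0.44 (0.26 to 0.52), so that both CPT comparisons had intervals above 0. Each of these intervals is that of the segment's median with the median of the rest taken off as a fixed value. The error of the rest is left out, so they are too narrow for a difference. In E669Q with CPT the interval included 0 with an overlap of 50% of both intervals, at 0.42 (-0.11 to 0.65), and with a −log10 q-value of at least 5, at 0.58 (-0.14 to 0.83). Placed among the 23 chromosomes, the segment would have ranked 4, 1, 9 and 3. These ranks set a segment with 14 to 37 shared intervals against whole chromosomes, and the DMSO ranks rest on values whose intervals include 0. Background was not compared with windows of like size on other chromosomes.

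**Figure D4:**
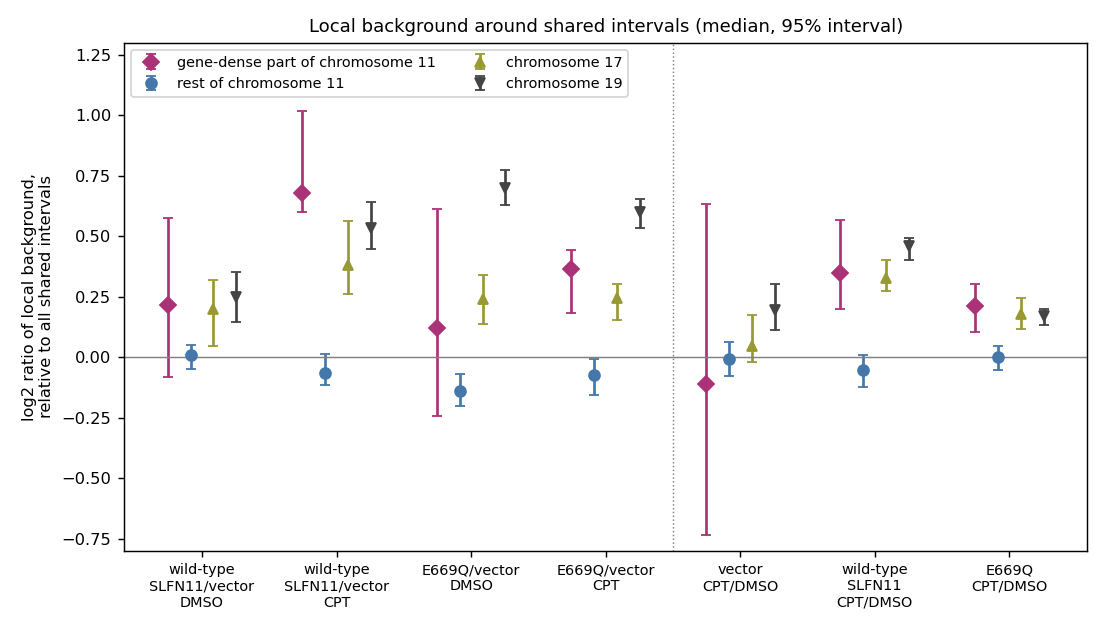
Median log2 ratio of local background between libraries, relative to all shared intervals (vertical axis), for SLFN11 lines over vector (left of the dotted line) and CPT over DMSO within a line (right), with 95% order-statistic intervals as bars; symbols are the gene-dense segment, the rest of chromosome 11 and chromosomes 17 and 19. Over vector with CPT the segment lies at 0.68 and 0.36, and the rest of chromosome 11 at -0.064 and -0.073.

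Both bins of the segment had a higher background with CPT in wild-type SLFN11. The median over vector was 0.63 (0.41 to 1.04, 11 shared) at 60-65 Mb and 0.70 (0.57 to 1.26, 9 shared) at 65-70 Mb, the highest of the bins with enough shared intervals. The next were the short-arm bins at 0-5 Mb with 0.32 (-0.076 to 0.64, 16 shared) and 5-10 Mb with 0.23 (0.11 to 0.45, 12 shared), and 70-75 Mb stood at 0.22 (-0.021 to 0.55, 9 shared). The 5-10 Mb bin, outside the segment, thus also had an interval above 0. In E669Q with CPT the 65-70 Mb bin was highest at 0.36 (0.19 to 0.50, 18 shared), and 60-65 Mb stood at 0.18 (-0.23 to 0.45, 19 shared). Between them lay 5 bins outside the segment: 50-55 Mb at 0.31 (0.15 to 0.33, 8 of 8 above 0), 45-50 Mb at 0.30, 0-5 Mb at 0.23, 115-120 Mb at 0.21 and 75-80 Mb at 0.19. Of these only 50-55 Mb had an interval above 0.

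Within a line, the background of the segment with CPT over DMSO was 0.35 (0.20 to 0.57) in wild-type SLFN11, above 0 in 37 of 42 shared intervals. In E669Q it was 0.21 (0.10 to 0.30), above 0 in 41 of 56. In the vector line it was -0.11 (-0.73 to 0.63) over 8 shared intervals, too few to resolve a change of that size. On the rest of the chromosome it was -0.054, 5.2e-06 and -0.0086 in wild-type SLFN11, E669Q and vector. The segment minus the rest was 0.40 (0.25 to 0.62), 0.21 (0.10 to 0.30) and -0.10 (-0.73 to 0.64), again with the error of the rest left out. The interval included 0 in wild-type SLFN11 with a −log10 q-value of at least 5, at 0.59 (-0.14 to 0.99), and in E669Q with an overlap of 50% of both intervals, at 0.21 (-0.024 to 0.31). The wider interval of the vector line holds the values of both SLFN11 lines, so no difference between lines was shown. Whether the background of the segment moved its interval numbers was not tested.

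Single regions show how the segment and the rest differ in strength. Of the regions in all 6 libraries, those with the highest median fold within the segment were chr11:62608908-62609296, chr11:63953041-63953700 and chr11:62494761-62495500. The first had folds of 6.97 and 4.40 in the vector libraries, 9.53 and 8.03 in wild-type SLFN11 and 5.92 and 6.90 in E669Q, DMSO first, on summit pileups of 6 to 25 fragments. The second had folds of 4.54, 5.78, 8.76, 4.54, 6.87 and 7.69 in the same order, and the third 6.37, 5.38, 6.05, 4.79, 6.03 and 7.51. In the first 2 the highest fold was that of wild-type SLFN11 with DMSO, and in the third that of E669Q with CPT.

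On the rest of the chromosome the 3 regions picked in this way, from the larger set, had higher folds that varied less between libraries. The region chr11:85195011-85195240, on the long arm, had folds of 24.1, 24.1, 24.9, 27.8, 28.6 and 27.2 on pileups of 88 to 282 fragments and was 219 to 230 bp wide in the 6 lists. At chr11:10530753-10531281, on the short arm, folds were 13.8, 13.5, 13.01, 13.9, 13.9 and 13.4, and the pileup could not be recovered. The peak caller's −log10 p-values there were extreme, at 1202 to 1747. Near the centromere, chr11:51579330-51579715 had folds of 13.2, 14.7, 12.49, 13.5, 12.7 and 12.1. Relative to its lowest value, the range of fold over the 6 libraries was smaller in each of these 3 regions than in any of the segment's 3. Whether mapping artefacts raise the signal of these 3 regions was not tested, so they need not be strong open chromatin.

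Gained intervals of the segment with the highest fold were modest. In the vector line they lay in chr11:66112442-66112815, with a fold of 6.97 on 9 fragments, and chr11:60631505-60631871, with 6.68 on 8 fragments. Both were also listed in wild-type SLFN11 with DMSO and in E669Q with CPT. In wild-type SLFN11 they lay in chr11:67397513-67398217, with a fold of 6.88 on 11 fragments, and chr11:63606221-63606810, with 6.47 on 9 fragments. The second of these regions also held a DMSO interval of the same line that did not overlap the CPT interval itself.

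In E669Q the gained intervals of the segment lay in chr11:66383719-66384281, with a fold of 7.96 on 17 fragments, and chr11:62572913-62573235, with 7.89 on 12 fragments. The first region was also listed in vector with CPT and in both wild-type SLFN11 libraries. The second was also listed in wild-type SLFN11 with DMSO only. Outside the segment, the strongest gains of E669Q lay at chr11:59474415-59474702, with a fold of 12.1 on 22 fragments, and chr11:59436276-59436803, with 10.4 on 26, both just below 60 Mb and both listed in the vector line too.

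The strongest gains of the vector line outside the segment lay at chr11:73471896-73472494, with a fold of 8.26 on 12 fragments, and chr11:93885404-93885802, with 8.07 on 11. The first was listed in every library but vector with DMSO. Those of wild-type SLFN11 lay at chr11:118972347-118972878, with 6.91 on 9 fragments, and chr11:85955537-85956462, with 6.68 on 10. The last region was also listed in vector with CPT and in E669Q with CPT, and wild-type SLFN11 with DMSO had an interval beside it without overlap.

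Lost intervals of the segment were of like strength. In wild-type SLFN11 they lay in chr11:66886406-66886793, with a fold of 8.73 on 17 fragments, and chr11:69490106-69490478, with 7.93 on 11 fragments. The second region held a CPT interval of the same line beside the lost one. In the vector line they lay in chr11:67572721-67573505, with 6.83 on 10 fragments, and chr11:60928610-60929327, with 5.59 on 8, each listed in all libraries except vector with CPT. In E669Q, chr11:66610884-66611254, with 6.53 on 9 fragments, and chr11:65420081-65420541, with 5.47 on 7, were listed in that 1 library only.

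Outside the segment, wild-type SLFN11 lost intervals at chr11:77597505-77597668, with a fold of 22.2 on 52 fragments, and at chr11:9385751-9386190, with 9.93 on 21. The vector line lost chr11:130178729-130179037, with 8.68 on 11 fragments, and chr11:134103558-134103990, with 8.13 on 11, both listed in wild-type SLFN11 with DMSO and in E669Q with CPT. E669Q lost chr11:39868316-39868702, with 7.69 on 9 fragments, and chr11:118230198-118230355, with 7.64 on 9, both listed in that library only. With pileups near 10 fragments, a gain or loss of most of these intervals amounts to a few fragments.

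The 4 regions with an interval of at most 150 bp and a fold of at least 10 were listed in 2 to 4 libraries each. The region chr11:77597505-77597668 was 164 bp wide, had folds of 22.2 in wild-type SLFN11 with DMSO, 18.0 in E669Q with DMSO and 21.0 in E669Q with CPT, and was not listed in the 3 other libraries. The region chr11:73221736-73221858 was listed in the DMSO libraries of wild-type SLFN11 and E669Q alone, with folds of 27.2 and 26.3 on 61 and 51 fragments. At chr11:10530435-10530566, next to the strong region of the short arm, 4 libraries had folds of 10.7 to 11.2. The region chr11:35052375-35052660 held a narrow interval in vector with CPT, with a fold of 10.1 on 14 fragments, and wider ones in vector with DMSO and wild-type SLFN11 with DMSO. None of the 4 lay in the segment.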

How the data were processed

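ATAC-seq was run on 6 K562 libraries, 1 per group, each with its own deposited peak list on hg19. Per the submitters' processing notes, MACS2 2.1.2, Picard 2.9.2, SAMtools 1.8, Bowtie2 2.2.6 and Trimmomatic 0.39 were used, without roles or settings. Read shifting and duplicate handling are not given in the sources used here. Fold enrichment in the deposited lists is the authors' ratio of summit signal to local background. The −log10 p-values and −log10 q-values of summits are also as deposited by the authors, and no list holds a −log10 q-value under 2.00. The deposited score, by the authors, restates the −log10 q-value as a whole number and was not used further.

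Distinct intervals on chromosome 11, without 5.2 to 5.35 Mb, were counted by midpoint in bins of 5 Mb, and overlap meant at least 1 bp. Summit pileup and local background were solved from fold and p-value with a pseudocount of 1, to a tolerance of 0.001 on the −log10 p scale. Relative depth came from the lowest background of a list, taken as a floor, in steps of 1 fragment per 10 kb, and the floors were 25.7 to 57.2 fragments. Thinning to equal depth used the expected number of intervals that pass the shallower list's lowest −log10 p, with no random draws. Windows of 10 Mb were ranked where the 6 lists reduced to equal length held at least 60 intervals together. Calculations were tested on simulated data and used scipy 1.17.1, pandas 2.3.3 and numpy 2.4.6 under Python 3.11.15, with figures by matplotlib 3.10.9.

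Groups came from the labels. With 1 library per group no test was run. Alternatives were a −log10 q-value or fold of at least 5, an overlap of 50% of both intervals, intervals wider than 150 bp alone, each summit counted, lists of matched length (5245 intervals), equal depth and a 55-75 Mb segment. Named regions were those with the highest median fold among regions in all 6 libraries (3 inside the segment, 3 outside), the 2 strongest gained and 2 strongest lost intervals over 150 bp per line in each part, and narrow intervals with a fold of at least 10. Named bins were the 3 densest, the 3 sparsest and, per line, the 2 with the largest rise and fall in share. The members, lists and rules were chosen with earlier results of these data known. The gene list and the K562 marker list that had been set could not be used without an hg19 annotation, so the cell line was not checked against markers.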

Additional observations from a re-analysis of the deposited data

Results flagged for a closer look

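CPT went with opposite directions of change in different lines. The ratio of CPT to DMSO interval numbers on chromosome 11 was 1.21 in the vector line and 1.46 in E669Q, and 0.509 in wild-type SLFN11. At 60-70 Mb it was 1.95, 1.76 and 0.545 in the same order. The difference between lines was not tested, because each group is 1 library. Depth moved in the same directions, from 1 to 1.09 in vector, from 1.33 to 2.22 in E669Q and from 1.72 to 1.09 in wild-type SLFN11. The whole lists moved the same ways, at 1.11 in vector, 1.48 in E669Q and 0.477 in wild-type SLFN11. At equal depth the whole lists gave 1.04, 1.04 and 0.687 in that order, and chromosome 11 gave 1.14, 1.04 and 0.714. The directions are thus those of the lists and not particular to the chromosome. At 60-70 Mb the equal-depth ratios were 1.65 (0.946 to 2.87), 1.15 (0.828 to 1.59) and 0.930 (0.644 to 1.34).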

How the results depend on the processing

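Of 175 alternatives over 33 results, 157 gave a value within the 95% interval of the reported one, 17 gave one outside it, and 1 turned the direction of a value whose interval had lain on 1 side. Among the 157, the sign also turned for values near 0: CPT minus DMSO for the chromosome's share of the list was -0.173 points in vector with a −log10 q-value of at least 5, and 0.0619 and 0.206 in E669Q with a fold of at least 5 and a width over 150 bp, and the chromosome's background in wild-type SLFN11 with CPT was 0.032 with an overlap of 50%. The ratio of interval density at 60-70 Mb over the rest had 13 of these 18 changes. With a −log10 q-value of at least 5 it was 0.337 in vector with DMSO, 0.689 in vector with CPT (which turned from above to below 1), 1.38 and 1.48 in wild-type SLFN11, and 1.60 and 2.29 in E669Q. With a fold of at least 5 it was 0.508 and 1.04 in the vector libraries. At matched length it was 1.06 in wild-type SLFN11 with DMSO and 1.51 and 2.02 in E669Q. With the segment set to 55-75 Mb it was 1.82 and 2.38 in E669Q. At matched length, CPT minus DMSO for the segment's share in wild-type SLFN11 was 8.63 points, the ratio of ratios was 2.32, and wild-type SLFN11 and E669Q with DMSO exceeded vector by 0.849 and 3.85 points. The log2 background of the segment minus the rest in E669Q with CPT over vector was 0.58 (-0.14 to 0.83) with a −log10 q-value of at least 5. A stricter q-value leaves fewer intervals; other causes were not tested. Where fewer than 6 shared intervals were left, the background gave no value. No paired analysis was possible because each group holds 1 library, where pairing means by replicate number. CPT and DMSO can be paired by line, and their values are given side by side; a test over the 3 lines was not run. The comparisons with vector, thinning to vector depth, the background less the summit pileup and the background without intervals at the floor were added after seeing the data. Summit pileups of 6 to 12 fragments limit what a gain or loss of an interval can show.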
